A study of Homo sapiens with 9 samples.

Results

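The 10 genes SOX4, SOX9, KLF3, KLF4, KLF5, KLF6, ELF3, GATA6, HES1 and CDX2 encode transcription factors of the intestinal epithelium. They were found by symbol, after the version was dropped from each Ensembl identifier, among the 15354 rows of an expression table, and all 10 had a row. All 10 also passed the filter for testing, at least 1 CPM (reads of a gene scaled to a common library total) in at least 3 libraries, which left 13893 genes. The group was chosen by its family and tissue and around SOX4, which was selected on its measured CPM, low under both siRNAs against control. Values of the 10 genes against control are therefore given as a description with no test, and tests are given only for siRNA A against siRNA B.

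The samples came from HCT116, an established cell line of human colorectal cancer, transfected with an siRNA at 25 nM per the labels (the study's methods give another concentration) and harvested after 36 h. Each group had 3 libraries: a commercial non-targeting siRNA (control), and the siRNAs called A and B, both directed against the long non-coding RNA SNHG5. Which of the siRNA names used in the study is A and which is B was not stated on the labels. Polyadenylated RNA from the whole culture was sequenced, so fewer cells with a transcript and less of it per cell cannot be told apart.

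In the intestine, cells divide in the crypts and mature as they move towards the surface, and the 10 factors belong to families that mark different steps of that path. SOX4 and SOX9 carry an HMG box and are known from stem, progenitor and secretory cells. The Krüppel-like factors bind CACCC and GC-rich sites through zinc fingers, with KLF5 known from dividing crypt cells and KLF4 from mature, non-dividing cells. ELF3 is an ETS factor restricted to epithelia, HES1 is the repressor through which Notch signalling favours absorptive over secretory cells, and GATA6 and the homeobox factor CDX2 help set intestinal identity.

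Promoter sequence was available from RefSeq (GRCh38.p14, placed on GRCh37 by exact match) for 8 of the 10 genes, SOX4, KLF4, KLF5, KLF6, ELF3, GATA6, HES1 and CDX2. Each window covered 300 bases, most of them upstream of an annotated start. The SOX4 windows are shown because SOX4 gave the largest difference among the 10 genes and held 4 matches to the CCAAT box, more than any of the other 7. Stretches of 30 bases around these matches follow, 5′ to 3′ on the plus strand, with the CCAAT letters or their reverse complement ATTGG in capitals. They lie at chr6:21593789-21593818, chr6:21593856-21593885, chr6:21593913-21593942 and chr6:21593960-21593989, in this order.
SOX4, 181 bases upstream: tttgctctgtaaATTGGaatgaggtcagat
SOX4, 114 bases upstream: tcgggttccaagCCAATgggaagcccgggg
SOX4, 57 bases upstream: ttacagcagctgATTGGctgcagccaagac
SOX4, 10 bases upstream: gcgcgaggcggaATTGGggtctgctctaag
A CCAAT match on either strand was also present in KLF6, ELF3, GATA6, HES1 and CDX2, so 6 of the 8 windows held it, against 35.7% of all 27305 RefSeq windows.

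A further 3 stretches show letters tied to the factors' own families and to the basal promoter. HES1 held the core letters of the RBPJ site, GTGGGAA, through which Notch acts (chr3:193853841-193853870, plus strand). Of all windows 6.28% held these letters. ELF3 held a TATA box, TATAAA, at 34 bases before the start (chr1:201979669-201979698, plus strand), as did 12% of all windows. KLF4 held 4 matches to the GC box, GGGCGG, a type of site that Krüppel-like factors bind, and the match nearest the start is shown (chr9:110252109-110252138, minus strand). A GC box was in 2 of the 8 windows, against 44.6% of all windows, and a CACCC box in 3, against 58.9%. The RBPJ core was in 1 of the 8 and the TATA box in 2. Letters of GATA sites (AGATAA) were in 1, against 10.5% of all windows, and of SOX sites (AACAAT) in 2, against 10.3%. Letters of CDX sites (TTTATG) were in 0, against 11%. Capitals mark the matched letters.
HES1, RBPJ core: tgaaagttactGTGGGAAagaaagtttggg
ELF3, TATA box: caggggacacacTATAAAgccctgagctca
KLF4, GC box: gaagaaagggagGGGCGGggcatgggagaa
These are matches of letters only, both strands were searched, and no binding was measured.

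Depth ranged from 15566530 to 23277549 reads per library, and 3 reads corresponded to 0.129 to 0.193 CPM. Among the 10 genes the lowest read count in any library was 57 (GATA6) and the highest 6644 (KLF6). The targeted RNA went against its labels, though PKMP3 and an unnamed gene overlap its annotated gene on the same strand. SNHG5 stood at 31.3, 22.1 and 25.9 TMM-scaled CPM in control. In the libraries labelled siRNA A it stood at 71.5, 58.8 and 67.3, and in those labelled siRNA B at 46.2, 50.3 and 46.1, higher and not lower in all 6. Groups are named by their labels for this reason, and every direction below is one between libraries with these labels. TMM scaling (trimmed mean of M values) evens out differences in composition between libraries. Log2 fold changes below are on the log2(TMM-scaled CPM + 1) scale, which understates differences of low genes. Those with library totals alone, and ranges over alternative settings, are on the scales of those settings. Ratios of mean TMM-scaled CPM are written as -fold. Over all tested genes the TMM-scaled median log2 fold change was −0.02 for A and 0.0043 for B. Library totals alone gave −0.34 and −0.18.

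SOX4 (ENSG00000124766.4) lies on chromosome 6 from 21593982 to 21598850 on the plus strand of GRCh37, as a single exon. An unnamed gene on the opposite strand overlaps it. Its levels were 160.4, 149.8 and 149.1 TMM-scaled CPM in control. They were 48.1, 55.5 and 43.2 in the libraries labelled siRNA A, and 34.8, 29.2 and 34.8 in those labelled siRNA B. The 3 groups did not overlap, and the order was control, then A, then B. The means of 153.1 ± 6.34, 48.9 ± 6.16 and 32.9 ± 3.23 (SD, n = 3) correspond to levels 3.13-fold lower with A and 4.65-fold lower with B than in control. The log2 fold changes were −1.63 and −2.19 (SE 0.11 for each), and with library totals alone they were −1.996 and −2.40. Counted from the lowest of the 13893 log2 fold changes, SOX4 took place 108 for siRNA A and place 9 for siRNA B.

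SOX9 (ENSG00000125398.5, chromosome 17 from 70117161 to 70122557) also stood lower than control, but with a wide spread. It was at 106.2, 164.7 and 140.7 TMM-scaled CPM in control libraries, at 43.1, 94.6 and 53.0 under A and at 54.4, 108.3 and 44.9 under B. The library numbered 2 was the highest in each group, and the siRNA B value of 108.3 passed the lowest control value of 106.2, so these groups overlapped on the TMM scale. On the deposited CPM they did not overlap. The log2 fold changes were −1.15 for siRNA A and −1.06 for siRNA B, with an SE of 0.32, nearly 3 times that of SOX4. SOX9 overlaps the antisense gene SOX9-AS1 and an unnamed gene in the annotation.

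**Figure D1:**
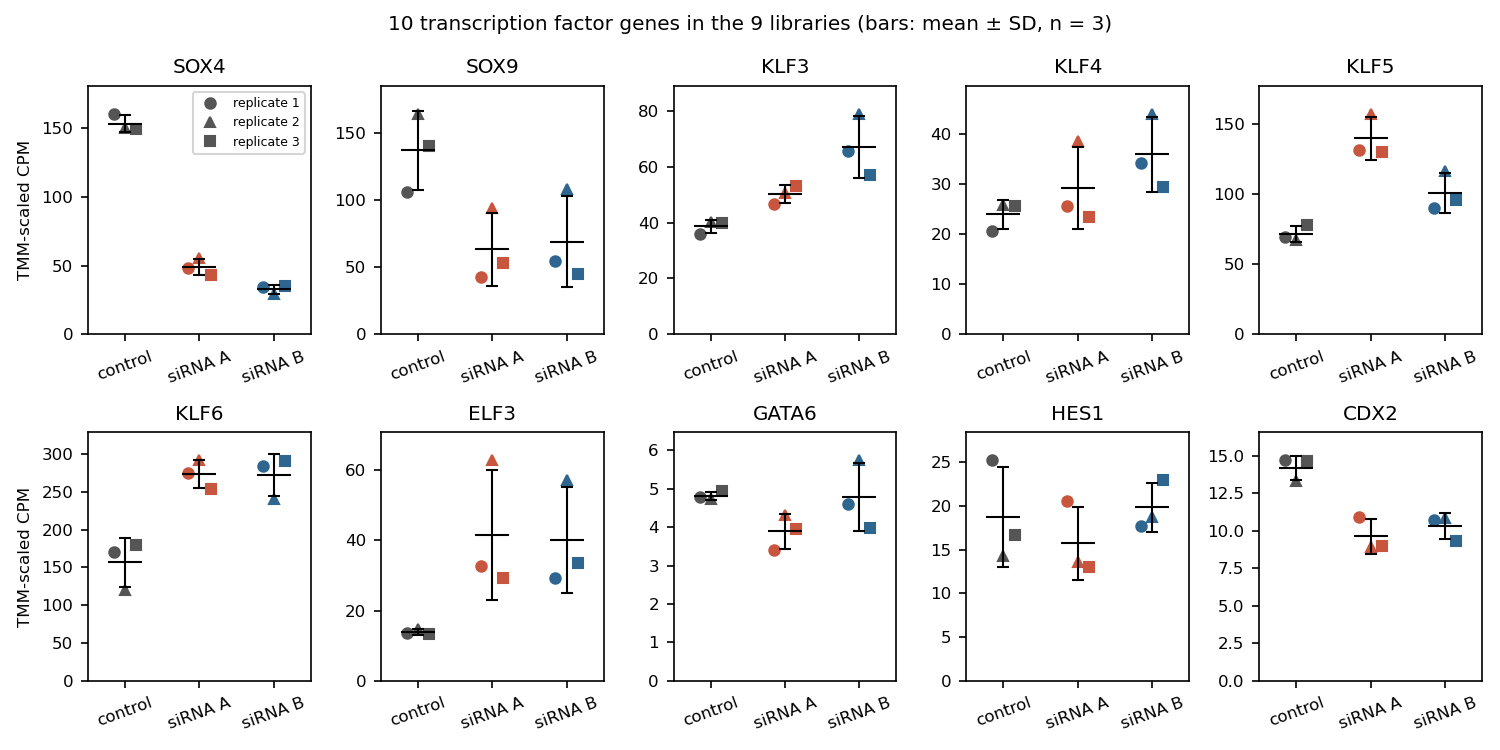
TMM-scaled CPM (vertical axes, linear, from 0) of the 10 genes in the 9 libraries, by group (horizontal axes). Symbols mark the replicate number and black bars the mean ± SD of 3 libraries. SOX4 lies in 3 separate groups, at 149.1 to 160.4 in control, 43.2 to 55.5 with siRNA A and 29.2 to 34.8 with siRNA B, and the triangle (replicate 2) stands highest in every group for SOX9, KLF4 and ELF3.

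The 4 Krüppel-like factors all had higher means with both siRNAs than in control on the TMM scale. KLF5 (ENSG00000102554.8), which is known to promote crypt proliferation, was at 69.7, 67.5 and 78.0 TMM-scaled CPM in control libraries, at 131.5, 157.5 and 130.4 under A and at 90.2, 116.9 and 95.8 under B. Its 3 groups did not overlap, and A stood above B. The log2 fold changes against control were 0.95 and 0.48 (SE 0.12), and 0.58 and 0.27 with library totals alone. KLF6 (ENSG00000067082.10), a broadly expressed member known as a growth suppressor, was at 170.6, 119.6 and 180.1 in control, at 275.3, 292.0 and 254.3 with A and at 284.6, 240.8 and 291.2 with B. All 6 siRNA libraries exceeded the highest control, and the log2 fold changes of 0.82 and 0.81 (SE 0.15) were nearly equal. With library totals alone KLF6 gave 0.45 and 0.60.

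KLF3 (ENSG00000109787.8), a repressor of the same family, was at 35.97, 40.3 and 39.7 TMM-scaled CPM in control libraries, at 46.7, 50.6 and 53.0 under A and at 65.6, 79.0 and 56.9 under B. Here the order was opposite to that of KLF5, with B above A. The log2 fold change was 0.37 for A and 0.77 for B (SE 0.12). The value for A rests on the scaling, since with library totals alone it was 0.0048 and the deposited CPM of the groups overlapped. KLF4 (ENSG00000136826.9) was lower in level, at 20.6, 25.8 and 25.6 in control, at 25.6, 38.6 and 23.6 with A and at 34.3, 44.2 and 29.5 with B. Control and A overlapped, whereas all 3 libraries with B lay above control. The log2 fold changes were 0.25 and 0.55 (SE 0.19), and with library totals alone the value for A turned to −0.11. KLF3 overlaps KLF3-AS1 and KLF4 an unnamed gene, and KLF5 and KLF6 overlap no annotated gene.

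ELF3 (ENSG00000163435.11) had the largest positive difference of the 10 genes. It lies on chromosome 1 from 201977073 to 201986311 on the plus strand. Its levels were 13.6, 14.9 and 13.2 TMM-scaled CPM in control libraries, 32.6, 62.8 and 29.1 under A and 29.3, 57.2 and 33.4 under B. The lowest siRNA library stood well above the highest control. The means of 41.5 ± 18.5 and 40.0 ± 15.0 (SD, n = 3) against 13.9 ± 0.88 correspond to 2.99-fold and 2.88-fold higher levels, with log2 fold changes of 1.43 and 1.40 (SE 0.28). With library totals alone these were 1.08 and 1.20. The overlapping antisense gene ELF3-AS1 had a row of its own at 1.32 to 3.15 CPM. An unnamed gene on the same strand also overlaps ELF3 and had no row, so its reads could have been shared with ELF3.

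Of the factors of intestinal identity and Notch signalling, CDX2 (ENSG00000165556.8) was at 14.7, 13.3 and 14.6 TMM-scaled CPM in control libraries, at 11.0, 8.92 and 9.002 under A and at 10.7, 10.8 and 9.29 under B. All 6 siRNA libraries lay below the lowest control, at 1.48-fold and 1.38-fold lower means, with log2 fold changes of −0.52 and −0.43 (SE 0.12), or −0.86 and −0.63 with library totals alone. GATA6 (ENSG00000141448.4), the lowest of the 10 genes in CPM, was at 4.79, 4.73 and 4.94 in control, at 3.40, 4.31 and 3.97 with A and at 4.61, 5.75 and 3.99 with B. Its A libraries lay just below control, and its B libraries on both sides of it. The log2 fold changes were −0.25 and −0.02 (SE 0.14), and −0.55 and −0.20 with library totals alone. GATA6 overlaps 4 annotated genes on the opposite strand. Of these, GATA6-AS1 had a row at 0 to 0.196 CPM and an unnamed gene had a row at 0.45 to 1.34 CPM. HES1 (ENSG00000114315.3) was at 25.2, 14.3 and 16.7 in control, at 20.6, 13.6 and 13.0 with A and at 17.8, 18.8 and 23.0 with B, so that all 3 groups overlapped. Its log2 fold changes of −0.23 and 0.11 (SE 0.21) lay close to their error, and with library totals alone they were −0.58 and −0.09.

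Counted over the 10 genes, the 3 libraries of a group lay entirely on one side of control in 8 for siRNA A, 4 above and 4 below, as in 59.5% of all tested genes. For siRNA B this held for 7, with 5 above and 2 below, against 47.6% of all tested genes. Since these contrasts were used in choosing the genes, the counts are given without further reading. The median log2 fold change of the 10 genes was 0.0093 for A and 0.29 for B. Both comparisons use the same 3 control libraries.

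**Figure D2:**
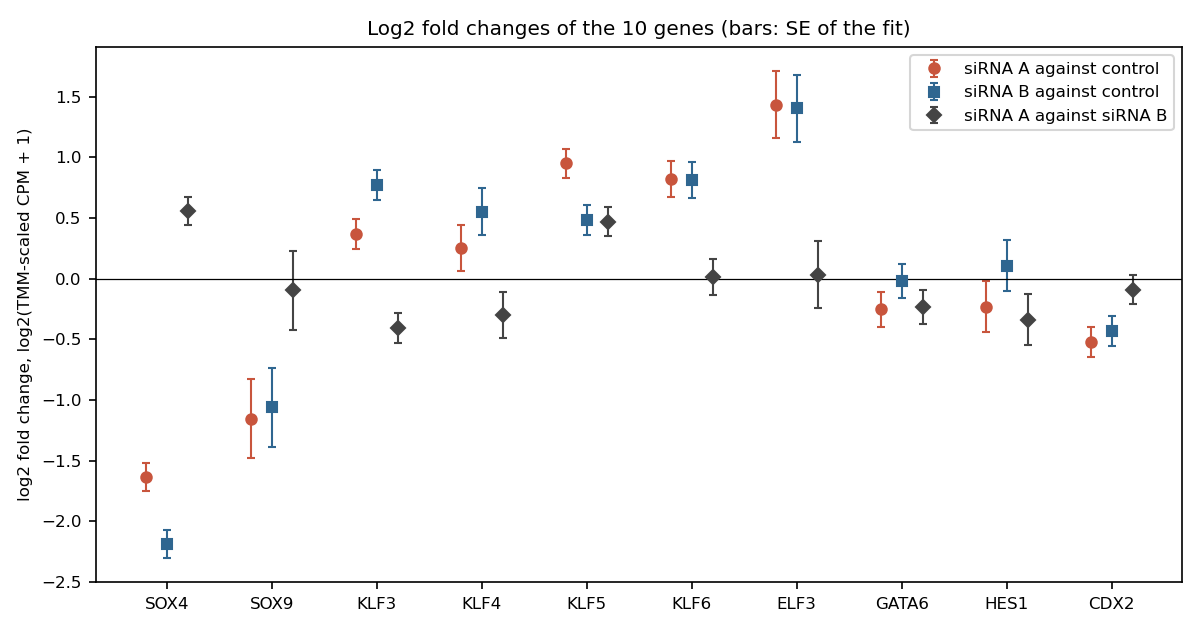
Log2 fold changes of the 10 genes on the log2(TMM-scaled CPM + 1) scale (vertical axis) for siRNA A against control (circles), siRNA B against control (squares) and siRNA A against siRNA B (diamonds). Bars are the SE of the fit. SOX4 lies lowest against control, at −1.63 and −2.19, ELF3 highest, at 1.43 and 1.40, and only SOX4, KLF3 and KLF5 passed the test between the siRNAs.

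The siRNAs were then compared with each other, a contrast that the choice of genes did not use. SOX4, KLF5 and KLF3 differed between siRNA A and siRNA B, and the other 7 genes did not pass the test. SOX4 was 1.49-fold higher with A than with B (log2 fold change 0.56, SE 0.11, limma, adjusted p = 0.00305), higher in 3 of 3 libraries. It kept its call under each of the 16 alternative settings, with values from 0.38 to 0.64. KLF5 was 1.38-fold higher with A (0.47, SE 0.12, limma, adjusted p = 0.0107), again with no overlap. Without siRNA B replicate 1 its adjusted p was 0.0507 in limma. KLF3 was 1.34-fold lower with A (−0.40, SE 0.12, limma, adjusted p = 0.0224), lower in 3 of 3 libraries. In limma its call was lost without siRNA A replicate 1 (−0.36, adjusted p = 0.0774), without siRNA B replicate 1 (−0.41, adjusted p = 0.0602) and without siRNA B replicate 2 (−0.28, adjusted p = 0.0670).

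These 3 calls, 2 higher and 1 lower with A, compare with 37.1% of all tested genes called in this contrast, 17.6% higher and 19.5% lower. The share of the 10 genes is thus near that of all genes. The same 3 genes were those whose groups did not overlap, against 47.6% of all genes. Among the others, KLF6 and ELF3 had the smallest differences, 0.0116 and 0.03 (SE 0.15 and 0.28, limma, adjusted p = 0.961 and 0.944). CDX2 gave −0.09 and SOX9 −0.10 (SE 0.12 and 0.32, limma, adjusted p = 0.595 and 0.844). KLF4, HES1 and GATA6 had lower means with A than with B, at −0.30, −0.34 and −0.23 (limma, adjusted p = 0.233, 0.231 and 0.218). A p over the threshold does not show that the levels were alike.

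The libraries numbered 2 stood apart for several of the 10 genes. SOX9 in that library was 1.33, 1.97 and 2.18 times the mean of the other libraries of its group in control, A and B. For ELF3 the ratios were 1.11, 2.03 and 1.82, and for KLF4 1.12, 1.57 and 1.38. KLF6 went the other way in control and B, at 0.682 and 0.836 times the others. The libraries numbered 2 also had the fewest reads in each group, 19313669, 15566530 and 16340856, and the part of depth in this pattern was not tested. Without these 3 libraries, an alternative chosen after seeing the data, SOX4 gave −1.74 and −2.12 against control, SOX9 −1.34 and −1.29, and ELF3 1.14 and 1.16. Between the siRNAs SOX4 then gave 0.38 (limma, adjusted p = 0.0215) and KLF3 −0.29 (limma, adjusted p = 0.0909).

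Levels of different genes were compared only per kilobase of annotated exon. In control the order began with SOX9 at 34.9 ± 7.49 and SOX4 at 31.4 ± 1.30 TMM-scaled CPM per kilobase (SD, n = 3), whose ranges overlapped. KLF6 at 25.5 ± 5.30 and KLF5 at 19.5 ± 1.51 came next and overlapped each other, though KLF6 did not reach SOX4. HES1 at 9.11, KLF4 at 6.56 and KLF3 at 5.71 formed an overlapping run, and CDX2 at 4.04, ELF3 at 1.93 and GATA6 at 1.27 each stood clear of the gene before. With siRNA A the order began with KLF6 at 44.6 and KLF5 at 38.0, which overlapped. SOX9 at 16.2 and SOX4 at 10.1 followed and overlapped each other, and SOX4 also overlapped KLF4. With siRNA B the order began with KLF6 at 44.3, clear of KLF5 at 27.4. SOX4 stood seventh at 6.76, below KLF3, KLF4 and HES1 at 9.92, 9.83 and 9.63. It lay clear of HES1 but overlapped ELF3. ELF3 was above CDX2 with both siRNAs, at 5.78 and 5.56, and below it in control. The control order of these genes rests on merged exon length, 7186 bases for ELF3 and 3517 for CDX2, which joins the exons of all transcripts. In TMM-scaled CPM their control libraries overlapped, at 13.2 to 14.9 for ELF3 and 13.3 to 14.7 for CDX2. CDX2 and GATA6 were the lowest pair with A and with B.

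**Figure D3:**
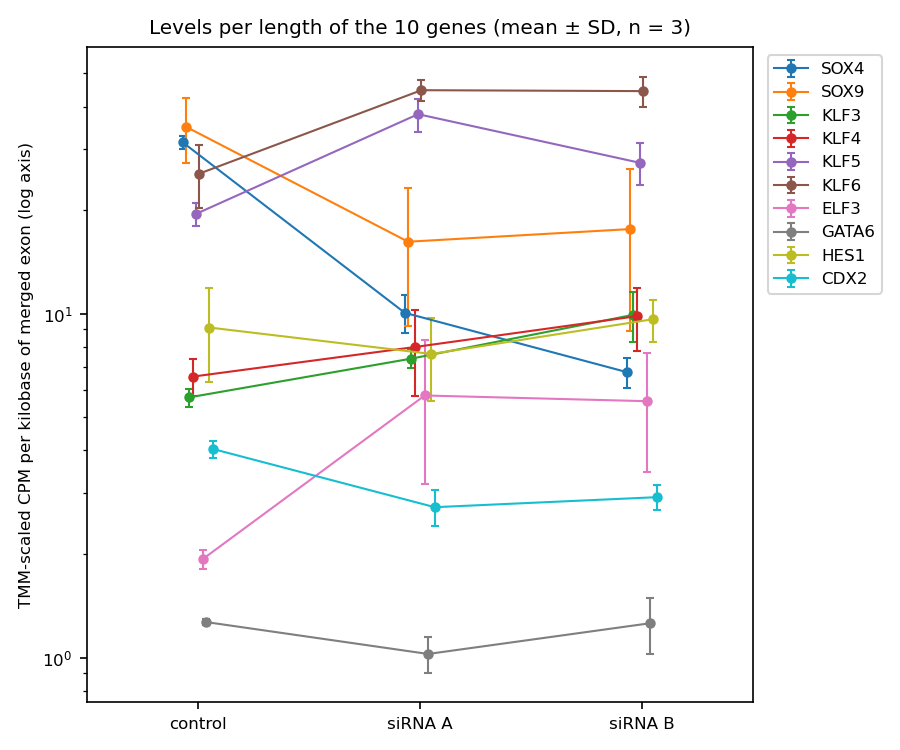
Mean level of each of the 10 genes per kilobase of merged exon, in TMM-scaled CPM (vertical log axis), in control, siRNA A and siRNA B. Bars are the SD of 3 libraries and lines join the groups of 1 gene. SOX4 went from 31.4 in control to 10.1 and 6.76 with A and B, and ELF3 from 1.93 to 5.78 and 5.56.

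Other genes of the same families and pathways were examined as lists, and these were tested in all contrasts. Of the list genes given below with a test, SOX6, SOX12, KLF7, KLF11, KLF12, GATA2, NRARP, ADAM17, JAG1, HNF4A, MYB, VIL1 and CA2 overlap another annotated gene. Reads of these genes could have been shared. Over all 13893 genes, 51.4% passed with siRNA A (23.9% higher and 27.6% lower) and 34.0% with siRNA B (15.6% higher and 18.3% lower), and the counts of each list stand beside these shares. Of 17 other SOX genes, 11 had a row and 7 were tested. With siRNA A 2 rose, 2 fell and 3 did not pass, and with siRNA B 1 rose and 6 did not pass. With library totals alone 0 rose and 3 fell with A, and 0 rose and 1 fell with B. The number called with B changed in 9 of 16 alternatives, to 0 or 2 in some of them. The list's median log2 fold change was −0.21 for A and −0.01 for B, against −0.02 and 0.0043 over all tested genes. SOX6, a partner of SOX5 in cartilage, passed with both siRNAs but near the filter, from a control level of 0.543 ± 0.206 TMM-scaled CPM to 1.11 ± 0.125 with A and 1.05 ± 0.15 with B (SD, n = 3; log2 fold changes 0.46 and 0.41, limma, adjusted p = 0.0206 and 0.0471). The call was lost in 4 of 12 alternatives for A and 6 of 12 for B, among them library totals alone (limma, adjusted p = 0.112 and 0.108). SOX6 reached 1 CPM only in siRNA A replicate 3 and siRNA B replicates 1 and 2. It was thus tested only through the groups where it stood high. Its test is therefore no support for a rise, though the counts of rises above include it. SOX12 was picked after its values were seen, as it belongs to the same SoxC subgroup as SOX4. It fell with A, from 40.9 ± 4.22 to 24.3 ± 2.54 (−0.73, SE 0.11, limma, adjusted p = 2.83e-04), was at 43.3 ± 1.65 with B (0.08, limma, adjusted p = 0.598), and differed between the siRNAs (−0.81, limma, adjusted p = 2.74e-04).

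Of 13 other KLF genes, 9 had a row and all 9 were tested. With siRNA A 3 rose, 3 fell and 3 did not pass, and with siRNA B 4 rose, 2 fell and 3 did not pass (51.4% and 34.0% of all genes passed, medians −0.03 and 0.25). KLF7, KLF10 and KLF11 rose with both. KLF7 went from a control level of 11.7 ± 1.64 TMM-scaled CPM to 21.7 ± 3.10 with A and 20.9 ± 2.49 with B (0.84 and 0.79, SE 0.14, limma, adjusted p = 5.09e-04 and 0.00148). KLF10 and KLF11, both induced by TGF-β, gave 0.56 and 0.73 (limma, adjusted p = 0.0120 and 0.00449) and 0.78 and 0.59 (limma, adjusted p = 5.46e-04 and 0.00531). With library totals alone KLF10 gave 0.19 for A (limma, adjusted p = 0.291). KLF15 passed with both siRNAs but near the filter (−0.84 and −0.55, limma, adjusted p = 4.62e-04 and 0.0103). Its mean went from 1.05 ± 0.113 TMM-scaled CPM to 0.147 ± 0.0873 under A and 0.401 ± 0.116 under B. KLF15 reached 1 CPM only in control libraries, so it was tested only through the group where it was high. Its test is therefore no support for a fall, though the counts of falls above include it. Its siRNA A values of 0.143, 0.193 and 0.0490 CPM were at or under 3 reads. KLF12, named after its values were seen, fell with A (−1.03, limma, adjusted p = 1.27e-04) and gave 0.25 with B (limma, adjusted p = 0.196), a difference between the siRNAs of −1.28 (SE 0.14, limma, adjusted p = 6.89e-05).

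All 4 tested genes of the ELF and epithelial ETS list passed with siRNA A, 2 higher and 2 lower, and 1 passed with siRNA B (51.4% and 34.0% of all genes, medians 0.07 and 0.10). EHF, an epithelial ETS factor close to ELF3, fell with both, in the opposite direction to the ELF3 values. It was at 28.1 ± 5.16 TMM-scaled CPM in control, 7.68 ± 1.84 with A and 9.86 ± 1.29 with B (−1.75 and −1.41, SE 0.18, limma, adjusted p = 2.26e-05 and 1.84e-04). No library of either siRNA reached the control range. Of the GATA list, 4 genes were tested, and 2 fell with A and none passed with B (medians −0.48 and 0.01). With the replicate block 3 fell with A, the third being GATA2, and 1 rose with B. For B, 1 gene had an unadjusted p under 0.05 in limma, and edgeR and DESeq2 called 0. GATA4 and GATA5 were at 0 in all libraries, so GATA6 was the only one of the endodermal GATA genes with reads.

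The Notch list, to which HES1 belongs by function, held 32 other genes, of which 27 had a row and 24 were tested. With siRNA A 5 rose, 9 fell and 10 did not pass, and with siRNA B 3 rose, 9 fell and 12 did not pass (51.4% and 34.0% of all genes passed, medians −0.24 and −0.15). Without control replicate 2 the numbers called were 9 and 6 in place of 14 and 12. With library totals alone 1 rose and 13 fell with A, and 1 rose and 11 fell with B. The receptor NOTCH3 fell from 9.90 ± 3.61 TMM-scaled CPM to 3.41 ± 1.45 with A and 4.26 ± 1.40 with B (−1.30 and −1.03, SE 0.28, limma, adjusted p = 0.00219 and 0.0136). The ligand JAG1 fell from 45.8 ± 11.4 to 26.1 ± 7.07 and 22.5 ± 7.03 (−0.79 and −1.01, SE 0.23, limma, adjusted p = 0.0145 and 0.00650). Both were highest in the control library numbered 2, and without it JAG1 with A (limma, adjusted p = 0.0674) and NOTCH3 with B (limma, adjusted p = 0.0599) did not pass. ADAM17, a sheddase, rose from 65.7 ± 6.08 to 145.0 ± 12.9 and 117.6 ± 8.95 (1.13 and 0.83, SE 0.11, limma, adjusted p = 1.35e-05 and 1.96e-04).

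Of 20 other intestinal transcription factors, 15 had a row and 11 were tested. With siRNA A 3 rose, 6 fell and 2 did not pass, and with siRNA B 1 rose, 2 fell and 8 did not pass (51.4% and 34.0% of all genes passed, medians −0.43 and −0.18). With library totals alone the number called with B was 6 in place of 3. MYB, a factor of dividing progenitors, fell from 4.72 ± 1.49 TMM-scaled CPM to 0.570 ± 0.415 with A and 1.37 ± 0.176 with B (−1.87 and −1.24, SE 0.23, limma, adjusted p = 5.81e-05 and 0.00153). HNF4A, a regulator of enterocyte genes, fell from 3.80 ± 0.628 to 1.83 ± 0.391 and 2.37 ± 0.193 (−0.76 and −0.50, SE 0.15, limma, adjusted p = 0.00157 and 0.0252), and the call with B was lost without control replicate 2 (−0.43, limma, adjusted p = 0.0917), without control replicate 3 (−0.49, adjusted p = 0.0712), and without siRNA B replicate 1 or 3.

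**Figure D4:**
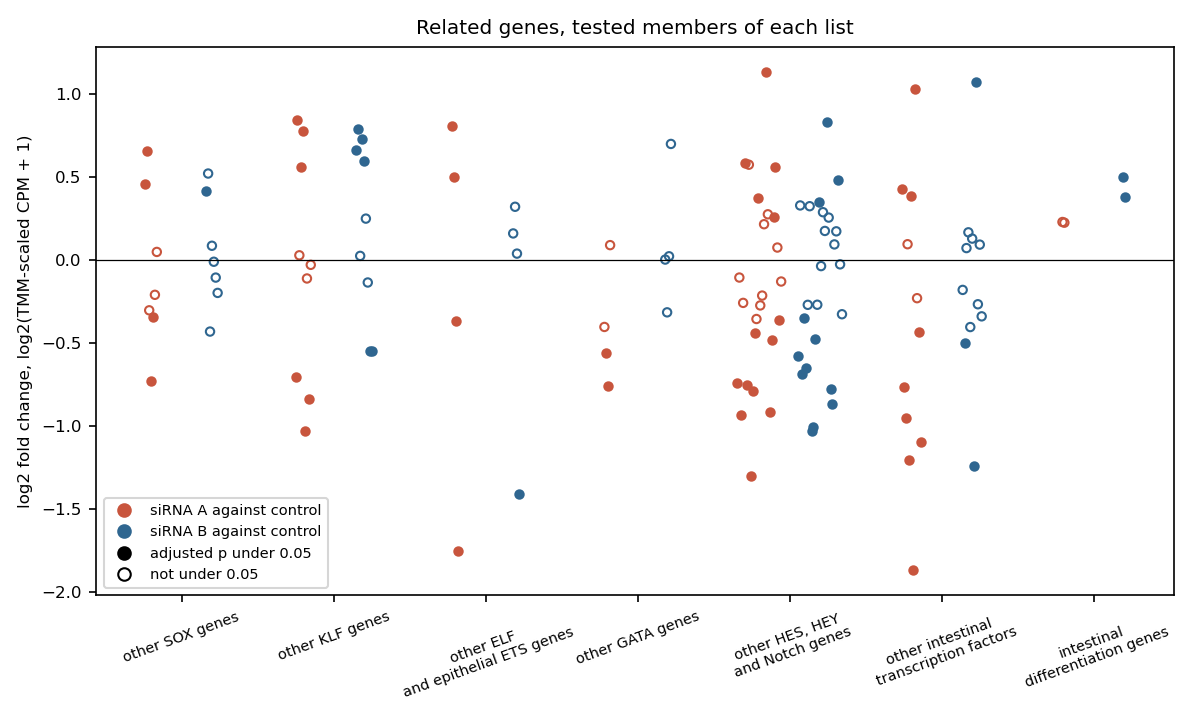
Log2 fold changes on the log2(TMM-scaled CPM + 1) scale (vertical axis) of the tested genes of 7 lists (horizontal axis), for siRNA A (red) and siRNA B (blue) against control. Each point is 1 gene, filled where the adjusted p was under 0.05. EHF, at −1.75 and −1.41, and MYB, at −1.87 and −1.24, lie lowest. Each list holds genes on both sides of 0 except the intestinal differentiation genes, where both tested genes lie above it.

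Genes of intestinal differentiation, mostly of mature cells but with the crypt stem cell genes LGR5 and OLFM4 among them, gave little to compare. Of 27 such genes 17 had a row and 2 were tested, VIL1 of the microvilli and CA2, a carbonic anhydrase. Neither passed with siRNA A in limma, where 1 had an unadjusted p under 0.05, edgeR called 0 and DESeq2 1. Both rose with siRNA B (VIL1 0.50 and CA2 0.38, limma, adjusted p = 0.00305 and 0.0298), a call that neither kept with library totals alone. The number called with B was 0 or 1 in 6 of 16 alternatives. FABP1, SI, ALPI, GUCY2C, TFF3 and CEACAM6 were at 0 in all libraries, and of the other genes below the filter the highest was KRT20, at 0.82 CPM at most. The label of a colonic epithelial line was checked against 8 epithelial markers, all of which had reads. Their summed level moved with the groups and was 2180 to 2301 CPM for control, 2927 to 3576 for A and 2468 to 2568 for B. The sum was mostly KRT8, KRT18 and KRT19. Of these 8 markers 4 rose and 2, EPCAM and CLDN3, fell with A, and 2 rose with B, beside 51.4% and 34.0% of all genes called. Fibroblast markers summed to 18.5 to 19.7, 9.44 to 12.4 and 8.59 to 9.45 CPM, mostly COL1A1, with LUM at 0. Immune markers summed to at most 1.67 CPM, and none of the 4 endothelial markers had a row. The part of these levels in the values of the 10 genes was not tested.

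The genes whose pattern over the 9 libraries was most like that of SOX4 were CDC34, SDF4, LAMTOR1, BCL7A and BTG3. Their Pearson correlations with SOX4 were 0.999, 0.995, 0.994, 0.992 and 0.992 on the log2 scale. CDC34, a ubiquitin-conjugating enzyme, stood at 69.1 ± 7.22 TMM-scaled CPM in control libraries, 15.98 ± 1.93 under A and 9.94 ± 0.949 under B (SD, n = 3). SDF4, a calcium-binding protein of the Golgi, stood at 98.7 ± 6.40, 54.5 ± 4.68 and 44.9 ± 3.54. Like SOX4, both were lower with B than with A in all libraries. Such a correlation is set mostly by 3 group levels, and the libraries share their controls, depth and scaling. Within the 10 genes, SOX4 correlated with CDX2 at 0.829 and with SOX9 at 0.711, and with KLF3, KLF6 and ELF3 at −0.908, −0.851 and −0.833. SOX4 and HES1 gave 0.0065. KLF5 and ELF3 correlated at 0.861 and KLF4 and ELF3 at 0.809, the latter pair sharing the high libraries numbered 2.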

How the data were processed

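RNA from 9 HCT116 cultures, 3 per siRNA, was purified with oligo-dT and sequenced as single ends by a sequencing company. The authors deposited 1 table of CPM, each gene's reads relative to its library's total, with 15354 genes and 9 columns. The submitters' processing notes name TopHat2 and HTSeq, with GRCh37 (hg19). Their settings, the annotation and the use of strand were not given in the sources used here. All CPM values were whole multiples of 1 read (100% within 0.001 reads), so reads were recovered from them. These carry no molecular identifiers, and floors cover counting error only. The study's methods state 3 biological replicates.

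Without their version, identifiers were looked up in GENCODE on GRCh37, a lifted annotation (14871 matched, 483 did not). Coordinates and exon lengths are of that annotation. CPM were scaled by TMM factors (edgeR 4.0.16), and log2(CPM + 1) was fitted with limma 3.58.1 (R 4.3.3) for genes that reached 1 CPM in 3 or more libraries, with 1 mean per group, a variance trend and Benjamini-Hochberg adjustment over all 13893 genes, with a threshold of 0.05. The fit was tested on simulated data. Alternatives were library totals alone, a pseudocount of 0.1, no filter, edgeR and DESeq2 1.42.0 on recovered reads, a replicate block, each library left out in turn, and, added after the data were seen, all libraries numbered 2 left out.

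The 10 genes and all lists were chosen with earlier results of these data known. List genes were named where called with both siRNAs, at most 4 per list, by the mean of both log2 fold changes. Some genes that this rule names are not reported here. KLF12 and SOX12 were added after their values were seen. For likeness, the 5 genes with the highest Pearson correlation with SOX4 were taken. The replicate numbers were checked for pairing through the correlation of deviations from group means. For same numbers it was 0.65, 0.41 and 0.13 for control with siRNA A, where the other pairs gave −0.54 to 0.094. It was 0.17, 0.44 and −0.39 for control with siRNA B, where control 1 with siRNA B 3 gave 0.68. For A with B it was 0.20, 0.44 and 0.019, where siRNA A 1 with siRNA B 3 gave 0.59. Same numbers were thus highest for control with siRNA A only. These values do not settle pairing, and the main fit used no block. Figures were drawn with matplotlib 3.10.9 in Python 3.11.15.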

Additional observations from a re-analysis of the deposited data

Results flagged for a closer look

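KLF2 and NRARP passed the limma threshold against control with both siRNAs but in opposite directions, and also between the siRNAs. Passing in each of these contrasts was the condition for listing a gene here. The test between the siRNAs therefore adds no support and is given as a description. KLF2, a Krüppel-like factor known for quiescence of lymphocytes and endothelium, stood at 22.7 ± 6.67 TMM-scaled CPM in control, 13.1 ± 1.30 under siRNA A and 35.4 ± 2.30 under siRNA B (SD, n = 3). It fell with A (−0.71, limma, adjusted p = 0.00751) and rose with B (0.66, limma, adjusted p = 0.0171), a difference of −1.37 (SE 0.19, limma, adjusted p = 2.42e-04). The rise with B did not pass with library totals alone (0.46, limma, adjusted p = 0.0501) or without the libraries numbered 2 (0.36, limma, adjusted p = 0.0635).

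NRARP, a Notch target that feeds back on the pathway, overlapped on the opposite strand by an unnamed gene, stood at 16.8 ± 1.48, 26.6 ± 9.62 and 10.3 ± 0.281 TMM-scaled CPM. It rose with A (0.58, limma, adjusted p = 0.0231) and fell with B (−0.65, limma, adjusted p = 0.0204), a difference of 1.23 (SE 0.19, limma, adjusted p = 5.28e-04). The rise with A was lost in 5 of 16 alternatives, among them library totals alone (0.23, limma, adjusted p = 0.289) and siRNA A replicate 2 left out (0.31, limma, adjusted p = 0.0556), and the fall with B in 3 of 16. The difference between the siRNAs passed in all 16 for both genes, from −1.51 to −1.29 for KLF2 and from 0.97 to 1.39 for NRARP.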

How the results depend on the processing

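Between siRNA A and siRNA B, 3 of the 10 genes passed the test, and leaving out single libraries gave from 1 to 4, with 1 without siRNA B replicate 1 and 4 without siRNA A replicate 2, where KLF4 also passed (−0.51, limma, adjusted p = 0.0412). Fewer libraries enter each of these fits. With the replicate block the 3 genes passed as well, and the block changed no call of the 10 genes between the siRNAs. It raised the number of genes called to 8093, 5791 and 6229 for A against control, B against control and A against B, from 7145, 4719 and 5155, and EHF then passed between the siRNAs (−0.34, limma, adjusted p = 0.0471). Over all alternatives these numbers ran from 5936 to 8093, from 3399 to 5791 and from 3996 to 6229. Library totals alone changed the split of higher and lower genes from 3314 and 3831 to 1257 and 6532 for A, from 2172 and 2547 to 958 and 4127 for B, and from 2452 and 2703 to 1415 and 3750 between the siRNAs. Against control, SOX4 ranged from −1.996 to −1.55 with A and from −2.40 to −2.10 with B. The values of KLF4 with A and of GATA6 and HES1 with B changed sign under 1, 1 and 3 of 16 alternatives. For genes at a few CPM, such as KLF15, MYB and SOX6, the pseudocount sets the size of the fold change.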
